A study of Mus musculus with 54 samples.

Results

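The comparison of S54F with wildtype myogenic progenitors at day 0 was taken from the deposited table that pairs these groups, with all of its genes. The table lists 17485 of the 19653 genes that appear in any table of the series, and it draws on 6 of the 54 samples, 3 labelled S54F and 3 labelled wildtype. The series holds 6 lines on 3 days of differentiation. Day 0 cells had been plated at high density in proliferation medium overnight and were harvested at the moment others were switched to differentiation medium.

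Both groups are H2K myogenic progenitors, mouse muscle precursors that are kept dividing in a serum-rich medium with chick embryo extract and γ-interferon. H2K cells in general carry a T antigen under an interferon-inducible major histocompatibility promoter, which is why γ-interferon is in the medium. The wildtype cells carried their own emerin gene and were not transduced. The S54F cells came from the EMD-/y line, which lacks emerin, and had been transduced with a lentivirus that encodes emerin with phenylalanine in place of serine at residue 54, then kept under puromycin. They were also plated at a higher density than wildtype, per the study's methods. The S54F protein, the loss of the endogenous gene, transduction, puromycin, plating density and the separate origin of the EMD-/y line therefore cannot be told apart in this comparison. The labels describe 1 S54F line and do not say which samples share a culture.

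Emerin is a protein of the inner nuclear membrane with a LEM domain, through which it binds the chromatin protein BAF, and it also binds lamins, β-catenin and the corepressor enzyme HDAC3. Loss of emerin causes an X-linked form of Emery-Dreifuss muscular dystrophy, in which skeletal muscle is lost and its progenitors differentiate poorly. Myogenic progenitors pass through a programme in which Pax7 marks the stem-like state, Myf5 and Myod1 commit cells to muscle, and Myog, Mymx and the sarcomere genes follow when cells leave the cycle and fuse.

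The values are normalized counts, read counts scaled to a common depth. Each table gives 1 value per group and gene. The values of the single libraries were worked out here from the whole set of tables. The 3 libraries of a group are called a, b and c from the largest to the smallest size factor, the number that scales a library to the common depth. Library c therefore had the lowest size factor in both groups, 0.984 in wildtype and 0.942 in S54F, and the fewest reads. The 6 libraries held between 17422463 and 18707661 reads in listed genes, and between 15505 and 15695 listed genes had a read. In both groups libraries a and b were close to each other and c stood apart. The median squared difference between 2 libraries was 1.55 times that of counting error for wildtype a and b and 10.3 times for a and c, and it was 1.70 and 10.3 times for the same S54F pairs. In S54F library c, 393 genes were at least 2-fold above the mean of a and b and 643 were at least 2-fold below it, and in wildtype library c these numbers were 376 and 371. Tests therefore treated the mean of a and b as 1 unit and c as another, 2 units against 2, with limma's moderated test on log2(normalized count + 1). If these libraries are technical repeats, its p-values measure only the spread between these samples.

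The endogenous emerin gene was all but silent in S54F cells, as their EMD-/y origin in the labels implies. Emd, at chromosome X, positions 74254687 to 74261548 on the plus strand of GRCm38, was at 1839, 1851 and 2068 normalized counts in wildtype libraries a, b and c. It was at 0.973, 0 and 0 in the S54F libraries, which together held 1 read against 5810 in wildtype. The ratio of wildtype to S54F was 5747, with a 95% counting interval from 1031 to 227017, and limma gave a log2 difference of -10.65 ± 0.32 (SE), adjusted p = 0.000507. In the +EMD line, which was transduced with wildtype emerin, the deposited Emd value at day 0 was 1.42 normalized counts, and in EMD-/y cells it was 3.52. The species and coding sequence of the transgenes are not given in the sources used here, so the level of S54F transgene RNA could not be read from this gene. The deposited S54F value for Emd was 2.08, above the library mean of 0.324, because the deposited ratios are moderated.

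A total of 13354 genes had a value of at least 10 in the higher group. Of these, 801 (6.00%) were 2-fold or more higher in S54F and 844 (6.32%) were 2-fold or more lower, together 12.3%. The differences were centred, with a median log2 ratio of -0.0007 over all these genes, and 77.5% of genes lay within 1.5-fold. At 4-fold the counts were 279 higher and 351 lower, and at 16-fold 67 and 119. The 3 S54F libraries lay wholly on that side of the 3 wildtype libraries for 1521 of the 1645 genes, 728 higher and 793 lower, where 45.5% of all tested genes did not overlap in either direction. Means of the library values with 1 added gave 825 genes 2-fold or more higher and 931 lower without S54F library c. In that library alone the counts were 926 and 1267. Limma called 285 genes higher (2.13%) and 357 lower (2.67%) at an adjusted p under 0.05, of which 252 and 322 were also 2-fold apart. The calls depended on library c of each group. Without S54F library c limma called 30 higher and 104 lower, and without wildtype library c it called 0, with 1037 higher and 1113 lower at an unadjusted p under 0.05. In these fits 1 group has a single unit, which is assumed to vary like the other group. Of the 188 genes that the naming rule selects, 79 passed limma's test, of which 23 also passed without S54F library c and 0 without wildtype library c. Each adjusted p below is limma's, with Benjamini-Hochberg adjustment over all 13354 genes, from the fit of 2 units against 2. Limma counts for the gene lists below stand against its shares over all genes, 2.13% higher and 2.67% lower.

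**Figure D1:**
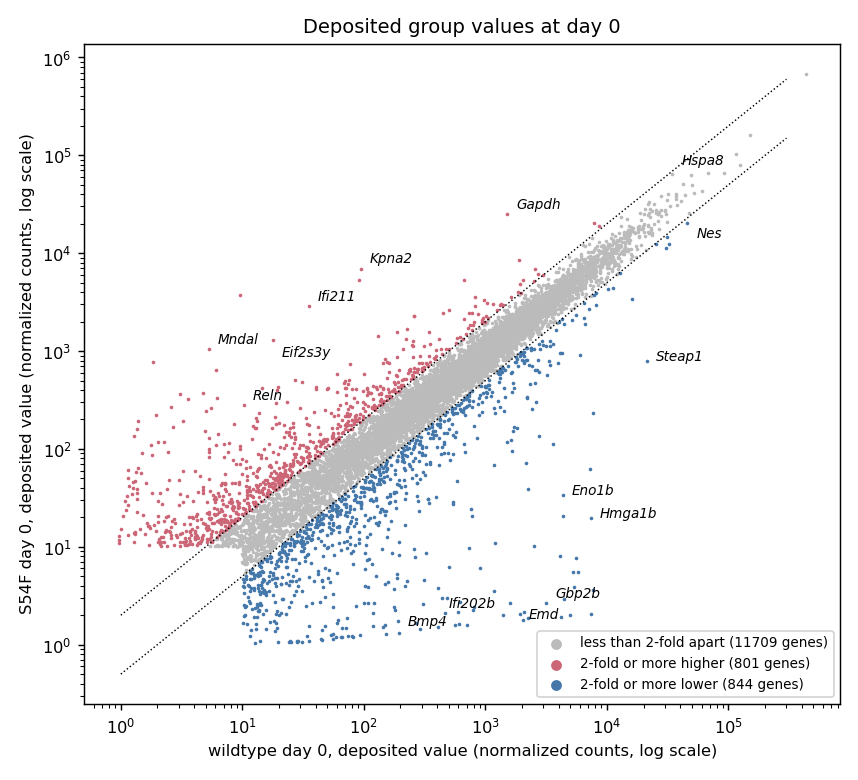
Deposited values of the 13354 genes with a value of at least 10 in the higher group, wildtype day 0 on the x axis and S54F day 0 on the y axis, both in normalized counts on a log scale. Each point is a gene, the dotted lines mark 2-fold, and the 801 higher and 844 lower genes fan out most at low counts, while Gapdh, Kpna2, Steap1, Hmga1b and Emd are among the labelled genes far from the diagonal.

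Most of the 12 highest ratios were in genes with few reads in wildtype, with Kpna2 (278 reads over the 3 libraries), Rpl26 (264), Ifi211 (53) and Eif2s3y (50) the exceptions. Myo7a, a myosin known from the inner ear, was at 5.85, 4.9 and 3.05 in wildtype and 597, 567 and 781 in S54F. Every S54F library was far above every wildtype library, and the limma log2 difference was 7.05 ± 0.35 (SE) (adjusted p = 0.00203). Cdh10, a neural cadherin, had 2 reads in the wildtype libraries together and 662 in S54F, a ratio of 335 with a counting interval from 92.3 to 2769. Ikzf1, a lymphoid transcription factor, was at 0.974, 3.92 and 0 against 397, 413 and 287, and Sall1, a zinc-finger repressor of kidney and limb development, at 0.974, 0.98 and 2.03 against 259, 244 and 297. The receptor phosphatase gene Ptprm was at 2.92, 5.88 and 1.02 against 333, 329 and 452. Limma called all 4 higher, with adjusted p-values of 0.00291, 0.0108, 0.00322 and 0.00831 in that order.

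The lowest ratios included Bmp4, a bone morphogenetic protein, at 143, 186 and 250.1 in wildtype and 0, 0 and 1.06 in S54F. It had 583 reads against 1, a ratio of 577 with a counting interval from 103 to 22815 (limma adjusted p = 0.00681). Ankrd2, a muscle ankyrin repeat protein that responds to stretch, was at 129, 161 and 245 against 0.973, 0.973 and 1.06 (adjusted p = 0.0047 with limma). Tcfl5, a basic helix-loop-helix factor known from the testis, was at 282, 263 and 272 against 0.973, 0 and 0 (limma adjusted p = 0.00251). Atp5md, which encodes a small subunit of the ATP synthase, was at 392, 574 and 533 against 3.89, 6.81 and 3.18 (limma adjusted p = 0.00202). For each of these 4 genes the libraries of the 2 groups were fully apart.

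The most negative differences in normalized counts, which are not per length, were in Actg1 (cytoplasmic γ-actin), Actb (β-actin), Nes, Steap1, Col1a2, Csf1, Thbs1 (thrombospondin) and Zyx. Nes, the intermediate filament nestin of progenitors, was at 43667, 44433 and 49801 normalized counts in wildtype and at 21414, 20306 and 18989 in S54F, a 2.27-fold lower deposited value (limma adjusted p = 0.0193). Steap1, a membrane protein of a metalloreductase family, was at 19879, 20014 and 23884 against 829, 887 and 548, 27.0-fold lower (limma log2 difference -4.99 ± 0.25 (SE), adjusted p = 0.00203). Csf1, the macrophage growth factor, was at 30337, 29961 and 31736 against 11413, 11597 and 10985 (limma adjusted p = 0.00819). For each of these 3 genes every S54F library lay far below every wildtype library. Actg1 was at 125932, 128290.0 and 117872 against 67022, 70060.2 and 100445 and Actb at 91099.8, 96745 and 89879.6 against 58865, 60563 and 78716, and neither passed (limma adjusted p = 0.275 and 0.306). For both actins S54F library c lay nearer to wildtype than a and b did.

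The largest positive differences were in Hspa8, Gapdh, Hsp90ab1, Eef1a1, Gstp3, Ftl1, Eif4a1 and Lgals1. Among these 8, Gapdh and Gstp3 passed limma's test, and the other adjusted p-values ran from 0.0651 to 0.733. Gapdh, the glycolytic enzyme often used as a reference gene, was at 1633, 1322 and 1523 in wildtype and 26428, 22567 and 25714 in S54F, 16.5-fold higher (limma log2 difference 4.06 ± 0.10 (SE), adjusted p = 0.00032). Gstp3, a glutathione transferase, was at 7752, 7501 and 8346 against 21076, 21366 and 18899.8 (limma adjusted p = 0.0124). Hspa8, the constitutive Hsp70 chaperone, was at 32298, 31562 and 39342 against 64869.5, 62593 and 67333, fully apart but short of the threshold (limma adjusted p = 0.0651).

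Several of the most extreme genes share sequence with other genes, between which reads could be split. A shared stretch, counted here when at least 200 bases of transcript aligned at 97% identity or more, was found for 27 of the 188 genes that the naming rule selects. Only the longest annotated transcript of each gene was searched, and genes that the sequencing provider predicted from the reads were not. Sharing of reads with predicted genes was therefore not tested for any gene, Gapdh and Atp5md included. Hmga1b, which matches the chromatin protein gene Hmga1 at 99.8% over 1538 bases, was at 6464, 5984 and 9623 in wildtype and 14.6, 19.5 and 15.9 in S54F, a log2 ratio of -8.54. Summed with Hmga1 it was at 13831, 12982 and 20831 against 18860, 20652 and 17444, a log2 ratio of 0.26. Eno1b, which matches the enolase gene Eno1 at 99.5% over 1652 bases, had a log2 ratio of -7.00 alone and -0.03 in the sum. The interferon-induced Ifi211 matches Ifi204 at 97.5% over 1304 bases, and had 6.35 alone and 1.10 in the sum. The difference was thus much smaller in the sums than in these genes alone. For Kpna2, an importin, and Rpl26, a protein of the large ribosomal subunit, the matching genes are not listed in the table and no sum could be made, and the same holds for Actg1, Eef1a1, Ftl1, Cdkn1c, Sfrp2 and Pi16 among the genes described here. Other genes share only a short identical stretch with a different gene, 234 bases of Tcfl5 with Col9a3, 437 of Nid2 with Rtraf, 912 of Mest with Copg2 and 206 of Snrpn with Snurf, and H2-Q1, a nonclassical histocompatibility gene, shares up to 312 bases with 5 related genes. For these no sum was read, and the values of all genes in this paragraph are uncertain where reads fell in the shared sequence.

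Genes that the sequencing provider predicted from the reads, and gene models without an established name, were 2-fold apart in larger shares than other genes. They made up 1072 of the 13354 genes, of which 12.4% were 2-fold or more higher and 24.2% lower, where other genes gave 5.44% and 4.76%. They are counted here and not named.

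Most myogenic factors lay within 2-fold of wildtype, and those farther apart were higher in S54F. Of 34 measured myogenic transcription factors, 6 were 2-fold or more higher in S54F and none lower, 17.6% against 12.3% of all genes, with a median log2 ratio of 0.23. Limma called 5 higher and 0 lower, where it called 2.13% of all genes higher and 2.67% lower. Myf5, the factor that marks committed progenitors, was at 217, 206 and 221 in wildtype and 420.4, 396 and 468 in S54F, and rose by 1.01 ± 0.16 (SE) on the log2 scale (limma adjusted p = 0.0387). Pax7, the satellite cell factor, was at 453, 431 and 229 against 909.9, 926 and 709. Its groups did not overlap, and the difference did not pass (limma adjusted p = 0.121). Myod1 was at 15022, 14838 and 11806 against 11539, 12292 and 9576, and Myog at 6392, 6563 and 10039 against 7067, 7331 and 8229. Both overlapped between the groups, with limma log2 differences of -0.31 ± 0.18 (SE) and -0.07 ± 0.24 (SE) and adjusted p-values of 0.385 and 0.894.

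The highest ratios in this list were those of Lbx1, Tbx1, Eya2 and Id4. Lbx1, which directs migrating limb muscle precursors, was at 0, 2.94 and 1.02 in wildtype and 94.4, 99.3 and 89.1 in S54F (limma adjusted p = 0.00697). Tbx1, a factor of head muscle, was at 115, 103 and 97.6 against 403, 472 and 398, 3.98-fold higher (limma adjusted p = 0.00931). Eya2, a cofactor of homeobox proteins, and Id4, an inhibitor of helix-loop-helix factors, were 3.11 and 2.86 times higher in S54F without passing (limma adjusted p = 0.115 and 0.102).

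Contractile and late muscle genes split by gene and by library. Of 67 measured, 4 were 2-fold or more higher and 3 lower, 10.4% against 12.3% of all genes. Limma called 1 higher and 3 lower, where it called 2.13% of all genes higher and 2.67% lower. With S54F library c left out, library means gave 5 and 5. Their median stood at -0.31, -0.25 and 0.58 in wildtype libraries a, b and c relative to the wildtype mean, and at 0.15, 0.08 and 0.46 in the S54F libraries, so library c was the highest in both groups. Myh2, a fast myosin heavy chain of adult fibres, was at 76.0, 79.4 and 183 in wildtype and 4.87, 1.95 and 9.55 in S54F (limma log2 difference -4.14 ± 0.65 (SE), adjusted p = 0.0406). Cacng1, a subunit of the muscle calcium channel, was at 1347, 1329 and 1468 against 626, 629.7 and 743 (limma adjusted p = 0.028). On the other side, Myh7, the slow myosin heavy chain, was at 113, 98.98 and 246 against 608, 514 and 716, Myh1, another adult fast myosin, at 531, 537 and 1604 against 3414, 3307 and 3537, and Mymx, the fusion peptide myomixer, at 89.6, 89.2 and 113 against 272, 286 and 225. These 3 were higher in every S54F library and did not pass (limma adjusted p = 0.0859, 0.131 and 0.051). Of the neuromuscular synapse genes none of 10 was 2-fold apart or called by limma, and the receptor kinase gene Musk had a log2 ratio of 0.53. In the dystrophin complex, 1 of 15 was 2-fold or more higher and 2 lower, 20.0% against 12.3% of all genes. The lower ones included Nos1, neuronal nitric oxide synthase, and limma called none of the 15. Leaving out S54F library c, library means gave 0 and 2.

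**Figure D2:**
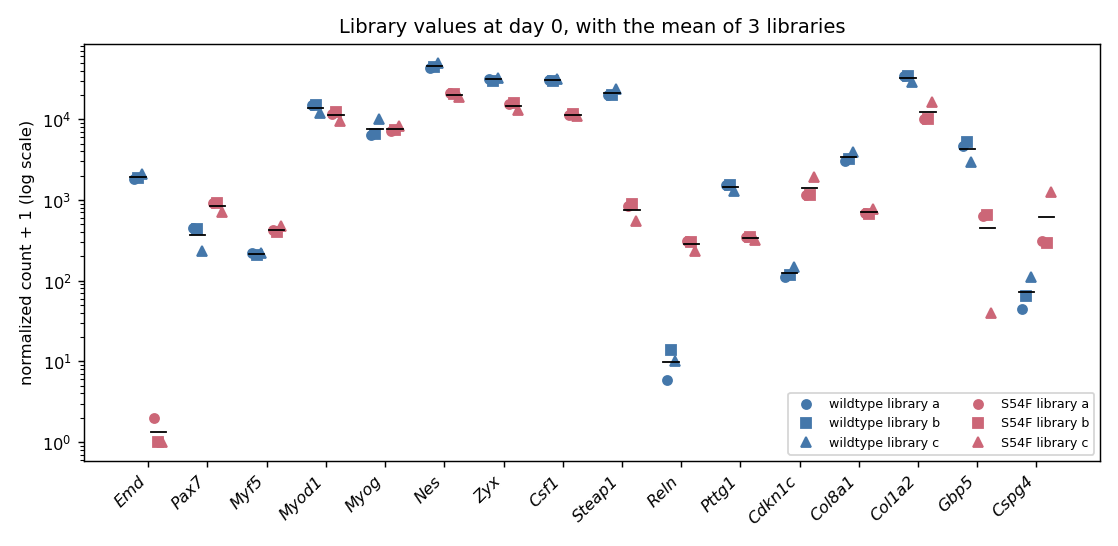
Normalized count plus 1 on a log scale for 16 genes in each of the 3 wildtype and 3 S54F libraries at day 0, with a bar at the mean of 3. Emd falls to 1 read in S54F, Nes, Zyx, Csf1 and Steap1 lie apart in every library, Myod1 and Myog overlap, and Gbp5, Col1a2 and Cspg4 show S54F library c away from a and b.

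Apart from Emd itself, which the list leaves out, no listed nuclear envelope gene was 2-fold apart, where 12.3% of all genes were. Of these 27 nuclear envelope proteins and emerin partners, limma called none, with a median log2 ratio of 0.06. It called 2.13% of all genes higher and 2.67% lower, so a list of 27 would hold few calls at these shares. All S54F libraries lay above all wildtype libraries for 8 of the 27 and below them for 6, where 45.5% of all genes did not overlap. Lmna, the gene for A-type lamins, was at 27723, 26926 and 23523 in wildtype and 24145, 24749 and 26048 in S54F, and its limma log2 difference was -0.01 ± 0.14 (SE) (adjusted p = 0.984). Ctnnb1, β-catenin, was at 12902, 12832 and 10664 against 13750.3, 13514 and 12254 (limma adjusted p = 0.62). Both overlapped between the groups.

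Mechanical signalling runs from the actin cytoskeleton to 2 sets of factors, the Hippo pathway's Yap and Taz with their TEAD partners, and SRF with its cofactors. Of 17 Hippo pathway genes, none was 2-fold or more higher and 2 were lower, 11.8% against 12.3% of all genes. Limma called 3 of the 17 lower and none higher, where it called 2.67% of all genes lower and 2.13% higher. Tead3, a TEAD factor, was at 1473, 1362 and 1144 in wildtype and 506, 558 and 533 in S54F, 2.48-fold lower (limma adjusted p = 0.0205), and Vgll3, a TEAD cofactor, at 5708, 5992 and 4955 against 1828, 1776 and 3250.2 (limma adjusted p = 0.12). The other called members, chosen after their values were seen, were the kinase gene Lats2 and Tead1, with log2 ratios of -0.70 and -0.64. Among 22 target genes of Yap and Taz, 3 were 2-fold or more higher and 2 lower, 22.7% against 12.3%. Their median was -0.24, and limma called 1 in each direction. Library means without S54F library c gave 3 and 4. Igfbp3, which binds insulin-like growth factors, was at 194, 201 and 135 against 1944, 1915 and 882, 8.32-fold higher (limma adjusted p = 0.0323). Amotl2, an angiomotin that holds Yap at junctions, was at 8154, 7978 and 7283 against 3458, 3607 and 4050.3 and fell (limma adjusted p = 0.0227). F3, tissue factor, was at 578, 626 and 394 against 180.0, 151 and 199 (limma adjusted p = 0.0568).

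The SRF and actin cytoskeleton list had a median log2 ratio of -0.31. Of its 27 members 2 were 2-fold or more higher and 5 lower, 25.9% against 12.3% of all genes. Library means without S54F library c gave 1 and 7. The medians over the list were -0.65 and -0.57 in S54F libraries a and b and -0.05 in c, so most of this difference was in 2 of 3 libraries. Zyx, the focal adhesion protein zyxin, was lower in all of them, at 31767, 29855 and 32147 in wildtype and 15403, 15714 and 12856 in S54F (limma adjusted p = 0.0242), and was the single member limma called. Myl9, a regulatory myosin light chain of nonmuscle and smooth muscle cells, was at 6474, 6679 and 6445 against 1725, 1718 and 2947 and just missed the threshold (limma adjusted p = 0.0533). Cnn1, smooth muscle calponin, was at 4.87, 16.7 and 22.4 against 6.81, 10.7 and 114, so its higher deposited value came from library c.

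Matrix genes held large differences in both directions. Of 31 measured collagen genes, 4 were 2-fold or more higher and 9 lower, 41.9% against 12.3% of all genes. Limma called 1 higher and 4 lower, where it called 2.13% of all genes higher and 2.67% lower. The list's median was -0.63 and -0.61 in S54F libraries a and b and 0.55 in c, so the balance of higher and lower collagens depended on the library. Without S54F library c, library means gave 4 collagens higher and 13 lower, and library c alone gave 8 and 7. Col8a1, a short-chain collagen, was lower throughout, at 3053, 3212 and 3917 in wildtype and 694, 675 and 769 in S54F, 4.72-fold (limma adjusted p = 0.00527). Col26a1 was at 245, 209.7 and 186 against 55.5, 38.0 and 45.6 (limma adjusted p = 0.0152). Col7a1, the collagen of anchoring fibrils, was at 106, 101 and 111 against 346, 364 and 437 and rose (limma adjusted p = 0.0141). Col1a2, a chain of type I collagen, was at 34117, 34296 and 28906 against 10038, 10036 and 16538, and Col6a3, a chain of type VI, at 343, 319 and 616 against 1907, 1641 and 4627. Neither passed, with limma adjusted p-values of 0.0799 and 0.0746, although their groups did not overlap.

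Among 37 matrix glycoproteins 5 were 2-fold or more higher and 6 lower, 29.7% against 12.3% of all genes. Limma called 3 in each direction, where it called 2.13% of all genes higher and 2.67% lower. With S54F library c left out, library means gave 4 and 9. Reln, the secreted guidance protein reelin, was at 4.87, 12.7 and 9.15 in wildtype and 312, 301 and 233 in S54F, 27.3-fold higher (limma adjusted p = 0.00355). Fbn2, fibrillin-2 of developing microfibrils, had no read in wildtype and 174 in S54F, at least 58.6-fold higher when wildtype is set at a floor of 3 reads over the group. Smoc2, a calcium-binding matricellular protein, was at 187, 159.7 and 268 against 1109, 1139 and 2866 (limma adjusted p = 0.0445). In the other direction, Nid2, a nidogen that links basement membrane networks, was at 17708, 18038 and 12496 against 3543, 3483 and 3054, 4.72-fold lower (limma adjusted p = 0.012). Efemp1, a fibulin, was at 809.7, 854 and 655 against 25.3, 19.5 and 10.6, 37.8-fold lower (limma adjusted p = 0.00609). Npnt, the integrin ligand nephronectin, was at 8319.5, 8680.1 and 7653 against 2560.5, 2493 and 3811 (limma adjusted p = 0.0436).

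Of 18 proteoglycans, 2 were 2-fold or more higher and 2 lower, 22.2% against 12.3% of all genes, and limma called none. Leaving out S54F library c, library means gave 1 and 2. Cspg4, the NG2 proteoglycan of pericytes and progenitors, was at 43.8, 63.7 and 109 in wildtype and 309, 293 and 1249 in S54F, apart in every library (limma adjusted p = 0.111). Fmod, fibromodulin, was at 61.4, 70.6 and 82.3 against 55.5, 61.3 and 434, higher in library c alone. Matrix proteases, inhibitors and crosslinkers gave 4 higher and 5 lower of 37, 24.3% against 12.3%, and all 3 that limma called were lower. The medians of this list were -0.31 and -0.31 in S54F libraries a and b and 0.12 in c. Adamts5, an aggrecan-cleaving protease, was at 2339, 2592 and 1747 against 291, 290.1 and 386, 6.73-fold lower (limma adjusted p = 0.0105), and Adamts2, which trims procollagen, at 819, 799.7 and 1070.4 against 290.0, 288 and 411 (limma adjusted p = 0.048). Integrins and cadherins gave 3 higher and 6 lower of 31, 29.0% against 12.3%. Limma called 2 in each direction, where it called 2.13% of all genes higher and 2.67% lower. Library means without S54F library c gave 3 higher and 6 lower, and library c alone gave 8 and 7. Cdh6 was at 2.92, 0 and 0 against 69.1, 72.0 and 383 and rose, and Nectin1, an adhesion receptor, was at 220.2, 202 and 293 against 575, 611 and 779 and rose as well (limma adjusted p = 0.0334 and 0.0451). Itga10, a collagen receptor subunit, was at 105, 93.1 and 52.9 against 15.6, 17.5 and 11.7 (limma adjusted p = 0.0641).

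TGF-beta and BMP signalling genes gave 9 higher and 4 lower of 47, 27.7% against 12.3% of all genes. Limma called 2 higher and 3 lower, where it called 2.13% of all genes higher and 2.67% lower. In library means without S54F library c the counts were 5 and 5, and in library c alone 15 and 5. Eng, the coreceptor endoglin, was at 81.9, 64.7 and 60.0 in wildtype and 499, 476 and 496 in S54F, 6.97-fold higher (limma adjusted p = 0.00468). Inhbb, the activin B subunit, was at 2864, 2839 and 2764 against 1059, 1169 and 935, and Chrdl1, a secreted BMP antagonist, at 87.7, 63.7 and 70.1 against 7.79, 10.7 and 7.43. Both fell (limma adjusted p = 0.0104 and 0.0175).

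In Notch signalling 5 of 21 genes were 2-fold or more higher and 1 lower, 28.6% against 12.3%. Limma called 2 higher, where it called 2.13% of all genes higher. Library means without S54F library c gave 3 higher and 1 lower, and library c alone gave 7 and 1. Hey1, a direct transcriptional target of Notch, was at 77.0, 77.4 and 99.6 in wildtype and 372, 375 and 479.6 in S54F, 4.72-fold higher (limma adjusted p = 0.0149). Dlk1, a noncanonical ligand and an imprinted gene, was at 7.8, 11.8 and 6.1 against 69.1, 74.0 and 69.0 and rose (limma adjusted p = 0.023). Jag1, a ligand, was at 119.9, 130.3 and 257 against 329.9, 338 and 1089.8 (limma adjusted p = 0.223).

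Wnt signalling genes gave 7 higher and 10 lower of 47, 36.2% against 12.3%. Limma called 1 higher and 2 lower, where it called 2.13% of all genes higher and 2.67% lower. Among the ligands, Wnt5a was at 186, 145 and 317 in wildtype and 678, 748 and 2094 in S54F (limma adjusted p = 0.107), and Wnt10a was at 78.0, 72.5 and 32.5 against 0, 0.973 and 0. Wnt10a had 186 reads in wildtype and 1 in S54F, a ratio of 184 with a counting interval from 32.6 to 7305, and it fell (limma adjusted p = 0.0221). Lgr6, a receptor for R-spondins, was at 313, 289 and 382 against 1198, 1181 and 2358 and rose, and Sfrp2, a secreted Wnt inhibitor, was at 454, 499.8 and 233 against 22.4, 39.9 and 23.3 and fell (limma adjusted p = 0.0394 and 0.0189).

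Growth factors and their receptors gave 5 higher and 8 lower of 62, 21.0% against 12.3% of all genes. Limma called 1 higher and 3 lower, where it called 2.13% of all genes higher and 2.67% lower. With S54F library c left out, library means gave 6 and 12. Fgf10, a fibroblast growth factor of limb mesenchyme, was at 66.3, 64.7 and 66.1 in wildtype and 8.76, 10.7 and 5.31 in S54F (limma adjusted p = 0.0294), and Nrg1, neuregulin-1, at 546, 605 and 544 against 115, 113 and 164 (limma adjusted p = 0.0175). Both fell. Igfbp5, which like Igfbp3 binds insulin-like growth factors, was at 2096, 2093 and 939 against 10689, 10464 and 4920.5, with library c the lowest of both groups (limma adjusted p = 0.089).

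Few genes of the cell cycle list were 2-fold apart. Of 81 genes 1 was 2-fold or more higher and 1 lower, 2.47% against 12.3% of all genes, with a median of -0.10. The list's medians were -0.09, -0.11 and -0.14 in S54F libraries a, b and c. All S54F libraries lay below all wildtype libraries for 36 of the 81 genes and above them for 11, where 45.5% of all genes did not overlap. The p53 pathway and recombination list had none of 39 genes 2-fold apart. Cdkn1c, the imprinted inhibitor p57 of cyclin-dependent kinases, was at 111, 116 and 146 in wildtype and 1143, 1158 and 1945 in S54F, 10.8-fold higher (limma log2 difference 3.53 ± 0.30 (SE), adjusted p = 0.00927). Pttg1, securin, which restrains the separation of sister chromatids until anaphase, was at 1529.8, 1513 and 1282 against 350.4, 343 and 319, 4.24-fold lower (limma log2 difference -2.07 ± 0.14 (SE), adjusted p = 0.0057). The libraries of both genes were fully apart.

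Metabolic and translation genes were 2-fold apart in shares below or near that of all genes. Of 37 glycolysis and hypoxia genes 2 were 2-fold or more higher and 2 lower, 10.8% against 12.3%, and Gapdh was the single one called. Of 58 redox, stress and sterol genes 1 was higher and 1 lower, 3.45%, and limma called 2 higher. Of 78 mitochondrial respiratory chain genes 2 were higher and 4 lower, 7.69%, and limma called 3 in each direction. Ndufc1 and Ndufa4, small respiratory chain subunits, were at 703, 792 and 688 and at 1759.8, 1855 and 1638 in wildtype and at 287, 253 and 297 and at 694, 704 and 891 in S54F, and both fell (limma adjusted p = 0.0153 and 0.0329). Atp5g2, a copy of the ATP synthase c subunit, was at 937, 997 and 500.1 against 2708, 2898 and 3088 and rose (limma adjusted p = 0.0413). Of 81 ribosomal protein genes 5 were 2-fold or more higher and none lower, 6.17% against 12.3%, with a median of 0.13, and limma called 10 higher and 1 lower, where it called 2.13% and 2.67% of all genes. Rps29 was at 110.1, 85.3 and 95.6 against 372, 339 and 475, Rps13 at 496, 637 and 849 against 1687, 2006 and 2646, and Rpl35a at 1765, 1916 and 1876 against 3990.1, 3807 and 4159 (limma adjusted p = 0.0143, 0.045 and 0.0112). Ribosomal protein genes as a class have many processed copies, and the share of their reads placed on copies was not tested.

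The interferon response list was low in S54F library c, with medians near wildtype in the other two S54F libraries. γ-Interferon, which is in the proliferation medium, is known to induce guanylate-binding proteins, immunity-related GTPases and antigen presentation. Of 61 interferon response genes, 2 were 2-fold or more higher and 9 lower in the deposited values, 18.0% against 12.3% of all genes. The median was -0.48, and limma called 1 in each direction, where it called 2.13% of all genes higher and 2.67% lower. The list's median was -0.16 and -0.18 in S54F libraries a and b and -2.40 in c, and 0.13, 0.14 and -0.26 in the wildtype libraries. In library means without S54F library c, 2 genes were higher and 6 lower, and in library c alone 1 and 44. Gbp2, a guanylate-binding protein chosen after its values were seen, was at 20413, 20434 and 11178 in wildtype and at 23503, 23766 and 944 in S54F. S54F library c was the lowest of the 6 libraries for this gene. What set library c apart was not tested.

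Some interferon genes were apart in every library. Irgm2, an immunity-related GTPase, was at 31.2, 0 and 4.07 in wildtype and 8120.4, 8396 and 1443 in S54F and rose (limma log2 difference 8.56 ± 1.00 (SE), adjusted p = 0.0193). Its deposited values were 664 and 5334, a log2 ratio of 3.01, far smaller than in the library values because the deposited ratio is moderated. Oas1g, an oligoadenylate synthetase, was at 66.3, 55.9 and 60.0 against 1.95, 6.81 and 4.24 and fell (limma adjusted p = 0.0152), although the sums with Oas1a, which it matches at 97.3% over 1866 bases, differed by -1.81 rather than -3.46 on the log2 scale. Gbp5, another guanylate-binding protein, was at 4665, 5162 and 2980.4 against 639, 651 and 38.2, and Cxcl9, a chemokine for T cells, at 1507, 1458 and 1269.6 against 257, 245 and 20.2. The last 2 were lower in all S54F libraries, by far the most in c, and did not pass (limma adjusted p = 0.144 and 0.131). Ifi202b, an interferon-induced DNA-binding protein, was at 2297, 2255 and 1736 against 0.973, 0 and 0, Mndal, of the same family, at 3.9, 1.96 and 2.03 against 1351, 1349 and 453, and Gbp2b at 4165, 3560.4 and 1759 against 0, 0.973 and 0. In each of these 3 genes 1 group was near 0 (limma adjusted p = 0.000512, 0.00651 and 0.00135).

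Antigen presentation genes followed the same libraries. Of 29 MHC and antigen processing genes 1 was 2-fold or more higher and 3 lower, 13.8% against 12.3% of all genes. The list's medians were -0.21, -0.19 and -1.59 in S54F libraries a, b and c. In library c alone 19 of these genes were 2-fold or more below the wildtype mean, and without it 2. Cd74, the class II invariant chain, was at 4867, 4736 and 2786 in wildtype and 1011, 1084 and 716 in S54F, lower in every library (limma adjusted p = 0.0409). H2-Ea, a class II α chain, had 444 reads in wildtype and none in S54F, at least 146-fold lower against a floor of 3 reads over the group. Cytokines and chemokines gave 3 higher and 6 lower of 29, 31.0% against 12.3%. Limma called 1 higher and 2 lower, where it called 2.13% of all genes higher and 2.67% lower. The medians of this list were -0.23, -0.29 and -0.89 in S54F libraries a, b and c. Library means without S54F library c gave 2 higher and 5 lower, and library c alone gave 4 and 13. Tnfrsf11b, the decoy receptor osteoprotegerin, was at 0.974, 0.98 and 4.07 against 61.3, 76.9 and 330.0 and rose (limma adjusted p = 0.045), and Cxcl14, a chemokine, was at 2456, 2369 and 3387 against 354, 354 and 999 (limma adjusted p = 0.0941).

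**Figure D3:**
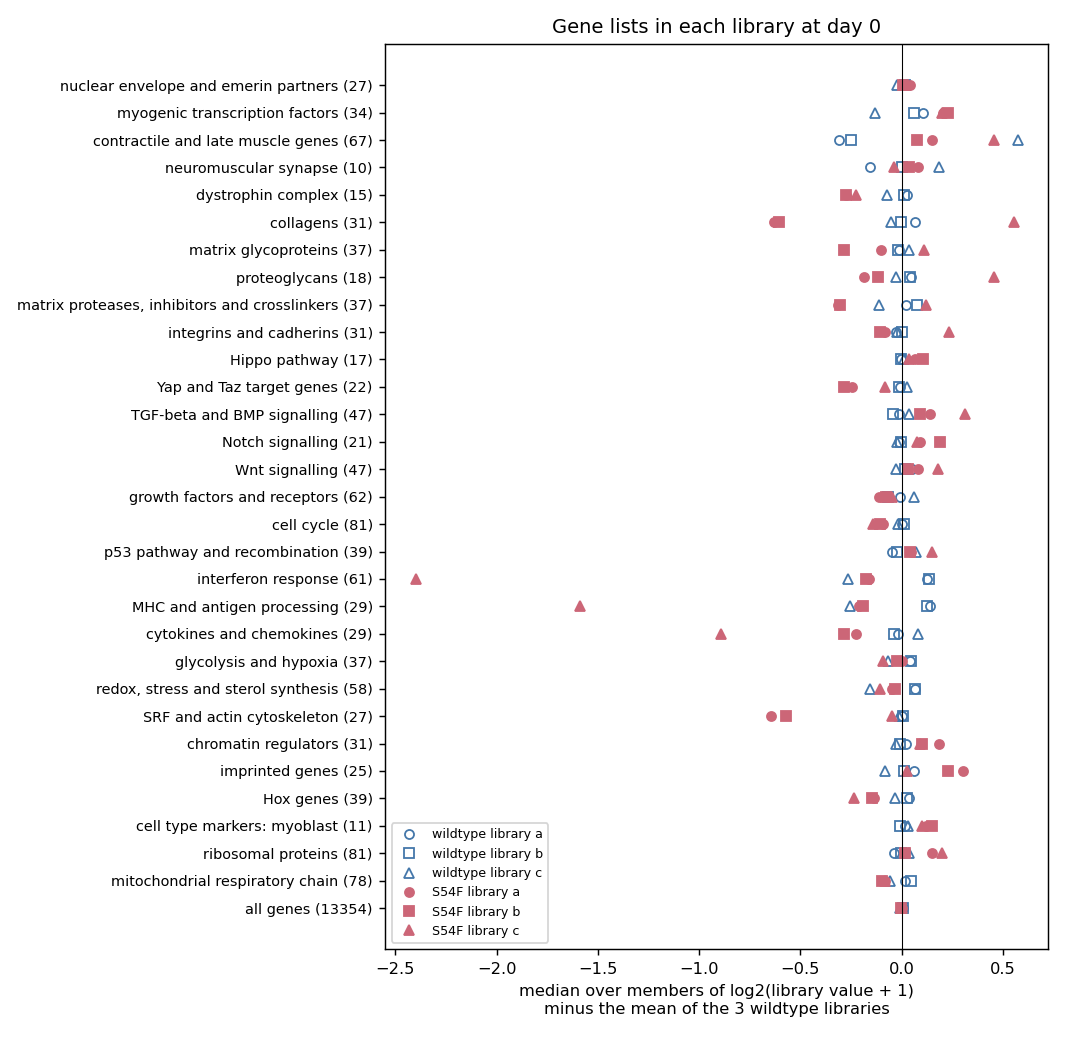
Each row is a gene list with the number of its members that had a value of at least 10, and the x axis gives the median over these members of log2(library value + 1) minus the mean of the 3 wildtype libraries. Open symbols are wildtype and filled symbols S54F libraries, and S54F library c stands at -2.40 for the interferon response and at 0.55 for collagens, away from a and b, while the median of all 13354 genes is within 0.01 of 0 in every library.

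Of 25 imprinted genes 6 were 2-fold or more higher and none lower, 24.0% against 12.3%. Limma called 4 higher, where it called 2.13% of all genes higher. In S54F library c alone 5 were higher and 3 lower, and the list's medians were 0.31 and 0.23 in libraries a and b and 0.03 in c. The 6 higher genes included Cdkn1c and Dlk1, given above. Mest was at 2913, 3453 and 955 in wildtype and 8379, 8329 and 2644 in S54F, and library c was the lowest in both groups (limma adjusted p = 0.357). Hox and related homeobox and T-box genes, which record the position in the body from which a cell came, gave 6 higher and 7 lower of 39, 33.3% against 12.3%. Hoxb7 had 79 reads in wildtype and none in S54F, at least 26.0-fold lower against a floor of 3 reads over the group (limma adjusted p = 0.0235). Hoxb6 was at 10.7, 12.7 and 26.4 against 0, 0 and 1.06, and Hoxb2 at 61.4, 59.8 and 75.2 against 23.4, 17.5 and 28.7 (limma adjusted p = 0.0777 and 0.0912). Meis2, a cofactor of Hox proteins, was at 238, 253 and 147 against 1438, 1531 and 995 and rose (limma adjusted p = 0.0221). Of 31 chromatin regulators, 2 were higher and none lower, 6.45% against 12.3%. Tet1, which oxidizes methylated cytosine, was at 47.7, 65.7 and 48.8 against 174, 151 and 168 and rose (limma adjusted p = 0.0264). Eif2s3y, a Y-linked translation initiation factor subunit, was at 15.6, 14.7 and 19.3 against 1300.2, 1336 and 1233 and rose (limma adjusted p = 0.000589), while the other measured Y-linked genes Ddx3y, Uty and Kdm5d had log2 ratios of 0.06, 0.07 and -0.20.

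Members that limma called but the naming rule leaves out were picked up after their values were seen. Of the myogenic factors these were Id2, an inhibitor of helix-loop-helix factors, and Zeb1, a zinc-finger repressor, with deposited log2 ratios of 1.36 and 0.74, and of the late muscle genes the receptor gene Neo1 with 0.70. Among matrix genes they were the basement membrane collagens Col4a1 and Col4a2 with -1.36 and -1.06, Pcolce, an enhancer of procollagen processing, with -1.22, and the adhesion gene Nectin2 with -1.03. Among signalling genes they were the receptor gene Tgfbr1 with 0.87, the growth factor gene Pdgfb with -1.26 and the chemokine gene Cxcl12 with -1.33. Plagl1 and Impact of the imprinted genes had 1.01 and 1.14, Tbx3 and Prrx1 of the Hox and related genes 1.11 and -0.74, and Gclc, for glutathione synthesis, 0.67. The respiratory chain genes Atp5e and Cox5b had 0.97 and 0.63. Such members of the ribosomal protein list, where limma called 10 higher and 1 lower, are not listed here.

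The markers of myoblasts were present in both groups. The summed level of 12 myoblast markers ran from 60613 to 62996 normalized counts in the wildtype libraries and from 59596 to 61359 in S54F, and of the 11 with a value of at least 10 only Pax7 was 2-fold apart. Msc, another of these markers, was near 0 in both groups. Markers of other cells were mixed. Fibroblast and fibro-adipogenic markers summed to between 31460 and 38607 in wildtype and to 24997, 25096 and 35186 in S54F, and 3 of 9 were 2-fold or more lower, all at low counts: Dcn, Pi16 and Mfap5. Leaving out S54F library c, library means gave 5 lower. Smooth muscle and pericyte markers summed to between 41957 and 58701 in wildtype and to 30204, 30733 and 59054 in S54F, with 4 of 8 higher. Without S54F library c, 2 were higher and 1 lower in library means, and the list's medians were -0.40 and -0.31 in S54F libraries a and b and 1.48 in c. One of the higher genes, Rgs5, a pericyte regulator of G-protein signalling, was at 1.95, 1.96 and 0 against 205, 189.8 and 116 and rose (limma adjusted p = 0.0155), while Myh11 and Kcnj8, which define smooth muscle and pericytes, had deposited values under 10. Cartilage and bone markers summed to between 2177 and 2292 in wildtype and to between 3321 and 3991 in S54F, and Sp7, osterix, was at 71.1, 67.6 and 81.3 against 240.4, 264 and 752 (limma adjusted p = 0.0828), while Ibsp and Bglap were near 0. Endothelial, leukocyte and epithelial markers stayed at or under 139 normalized counts in sum in every library, and the defining leukocyte gene Ptprc was near 0. Adipocyte markers summed to between 599.7 and 1442 in wildtype and to between 253 and 588 in S54F, nearly all of it Cebpa. Schwann and neural markers summed to between 859 and 1158 in wildtype and to between 868 and 1116 in S54F. The part of other cells or of library c in the matrix and signalling differences was not tested. In bulk RNA, fewer cells of a type and less RNA per cell cannot be told apart.

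At day 0 chromosome 3 had the median farthest from 0. The median log2 ratio of the 612 tested genes on chromosome 3 was -0.24, and it was -0.24, -0.26 and -0.25 in S54F libraries a, b and c and between -0.03 and 0.02 in the wildtype libraries. All other chromosomes had medians between -0.07 and 0.15, the highest on chromosome 15 (510 genes) and the next on chromosome 8 (0.10, 685 genes). On chromosome 3, 23 genes were 2-fold or more higher and 50 lower, where all 12533 tested genes placed on these chromosomes gave 683 and 605. The chromosome 3 shift was also present on the later days, at -0.20 on day 1 and -0.17 on day 2, and the other lines had medians of -0.14 (EMD-/y), -0.05 (del95-99), 0.30 (Q133H) and -0.33 (+EMD) against wildtype at day 0. Chromosome 15 lay farther from 0 on the later days, with an S54F median of 0.27 on each. Its medians in the other lines at day 0 were 0.03, -0.01, -0.01 and -0.02 in the same order. Chromosomes 3 and 15 were singled out after the medians were seen.

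**Figure D4:**
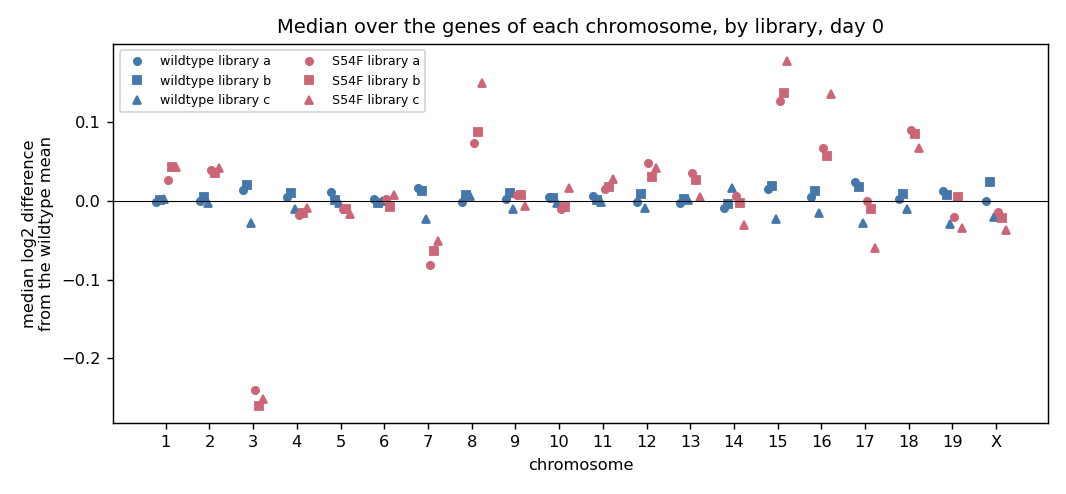
Median over the tested genes of each chromosome of log2(library value + 1) minus the mean of the 3 wildtype libraries, for each of the 6 libraries at day 0. The S54F libraries stand at -0.24, -0.26 and -0.25 on chromosome 3 and within 0.2 of 0 on all other chromosomes, and the wildtype libraries stay near 0.

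The other lines were each compared with the same wildtype libraries in their own tables, so their values are given side by side only. Several of the large differences had a like size in the other lines, all of them EMD-/y cells or made from them. Eif2s3y had log2 ratios to wildtype of 6.17 in S54F, 6.40 in EMD-/y, 6.23 in del95-99, 6.34 in Q133H and 6.24 in +EMD cells. For Steap1 they were -4.76, -4.43, -4.96, -4.72 and -5.51 in the same order, and for Pttg1 -2.08, -1.86, -2.07, -1.89 and -2.46. These genes lay on the same side of wildtype in every line, +EMD included.

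Other genes had values in S54F unlike those of several lines. Reln had a log2 ratio of 4.77 in S54F and of 2.21, 2.36, 3.24 and 2.28 in EMD-/y, del95-99, Q133H and +EMD cells. Fbn2 had deposited values of 57.7 normalized counts in S54F and of 5.16, 3.59, 0.181 and 1.8 in the others. Csf1 had log2 ratios of -1.43 in S54F and -0.48, -0.71, -0.20 and -1.16 in the others. Col8a1 had -2.24 in S54F, -0.41, -0.73 and -0.65 in the first 3 of these and -4.52 in +EMD. Pax7 was at 843 in S54F, 884 in EMD-/y, 1549 in del95-99, 3.62 in Q133H and 2148 in +EMD cells, so it was nearly absent in Q133H alone. Whether any of these lines differ from S54F was not tested.

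Over the course of differentiation the day 0 differences kept, lost or turned their direction by gene. Myo7a had log2 ratios of S54F over wildtype of 6.72, 5.50 and 4.07 on days 0, 1 and 2, and Steap1 of -4.76, -4.95 and -6.21. Nes went from -1.18 to -0.61 and -0.25, and Csf1 from -1.43 to -0.46 and -0.21, as the Csf1 value of wildtype came down from 30666 to 1812 normalized counts. Zyx had -1.09, 0.31 and 0.64. Pax7 went the other way, from 1.16 to 2.74 and 2.99, with wildtype at 376, 142 and 51.2 normalized counts and S54F at 843, 949 and 408. Cdkn1c stayed higher, with 3.43, 2.70 and 2.84, while its level in wildtype went from 131 to 4263. The Gapdh difference was much smaller on day 1, with 4.04, 0.46 and 2.19. Wildtype Gapdh was at 1512, 6399 and 2297 normalized counts on these days and S54F at 24883, 8828 and 10474. The values of different days come from tables that were normalized separately, and the change of a difference between days was not tested.

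**Figure D5:**
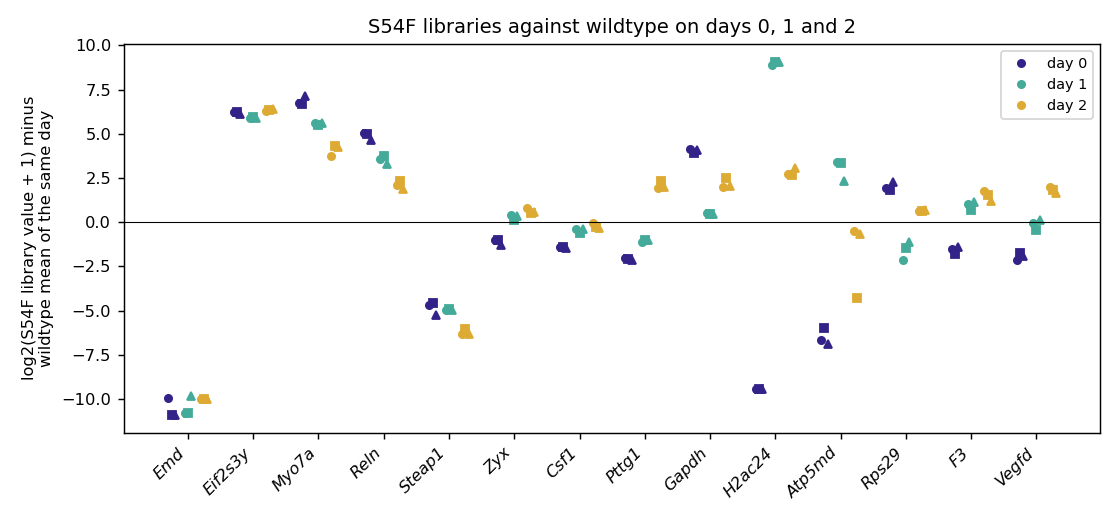
For 14 genes, log2(S54F library value + 1) minus the mean of the wildtype libraries of the same day, on days 0, 1 and 2, with circles, squares and triangles for libraries a, b and c of each day. Emd, Eif2s3y, Myo7a and Steap1 stay on 1 side on all days, Zyx and Csf1 come close to 0 or cross it, and Pttg1, H2ac24, Rps29 and F3 lie on opposite sides on different days.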

How the data were processed

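Poly-A RNA of the H2K lines was sequenced in pairs on the DNBseq platform. Per the labels and the study's methods, the authors aligned reads to mm10 with HISAT2 and compared groups with DESeq2; the counter and annotation were not given in the sources used here. The deposited tables hold, for each pair of groups, 1 normalized count per group and gene, on a linear scale that is treated here as a signal. They also hold the authors' log2 fold changes, p-values, adjusted p-values and up or down calls, none of which was used. No column holds a single sample.

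The main values are the deposited group values, with a gene tested when its higher value was at least 10 and called 2-fold apart at a ratio of 2. The deposited pair of values is not 2 plain means: their average is the mean normalized count of the 6 libraries, while their ratio is moderated, which draws the 2 values together for some genes, low and high.

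No test was planned, because the tables hold no replicates. After the data were seen, library values were worked out from the 27 tables: each gene's averages must come from whole reads divided by a size factor in each of the 54 libraries, and this was solved for all 19653 genes. A second starting point gave 0 genes with other reads. With the table of S54F and wildtype left out, its averages were predicted within a relative 1e-09 for 17481 of 17485 genes. These reads are inferred, so no count model was run on them. The letters a, b and c carry no replicate number and link to no sample label.

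limma (3.58.1, R 4.3.3) was run on log2(library value + 1) with a mean-variance trend and Benjamini-Hochberg adjustment. The labels give 3 technical replicates for each of 2 biological replicates without saying which sample is which. Libraries a and b were averaged because they were close, although they differed somewhat beyond counting error; this was decided after seeing how close the libraries were and before any calls. On simulated data for this comparison with 13354 genes it recovered 76 of 100 genes changed 2-fold and 99 of 100 changed 4-fold, with 10 calls among 13154 unchanged genes. The simulation gave every gene the same spread between cultures, drawn separately for each gene, and gave libraries a and b counting error only. In the real libraries 939 genes were 2-fold apart between S54F a and c, and whole lists shifted together. The simulated rates therefore need not hold for the real libraries. Counting intervals (95%) and floors of 3 reads cover counting error only.

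Genes were named by rule: Emd; the 12 highest and 12 lowest ratios with the higher value at least 100; the 8 largest differences in each direction; up to 4 members of each of 39 lists in each direction among those 2-fold apart, or 2 by level where none was; and Pax7, Myf5, Myod1 and Myog. Predicted and model genes were not named. Results for a few genes that the rule selects are not reported here. Members and lists were chosen with earlier results of these data known. Symbols came from RefSeq for GRCm38, the build called mm10, and matched 15920 of 17485 genes. Sequence shared with other genes was sought with minimap2 (2.31-r1302) among the longest annotated transcripts of all genes, without those the provider predicted.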

Additional observations from a re-analysis of the deposited data

Results flagged for a closer look

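For 12 of the named genes, every S54F library lay on one side of every wildtype library at day 0 and on the opposite side on a later day. The difference between days was not tested, and the days were normalized separately. The values are log2 ratios of S54F over wildtype, from means of the 3 libraries with 1 added, for genes at least 2-fold apart on each day given.

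H2ac24, a histone gene, gave -9.46 at day 0, 9.03 on day 1 and 2.26 on day 2, with all S54F libraries at 0 on day 0 and all wildtype libraries at 0 on day 1, so that these ratios depend on the added 1 and are no bounds. Itgb7, an integrin subunit, gave -1.53, 1.59 and 1.39 on days 0, 1 and 2. Between days 0 and 1, Atp5g2 went from 1.84 to -1.63, Atp5md from -6.47 to 2.59, Fgf21 from 1.76 to -2.89, Rps13 from 1.68 to -1.99 and Rps29 from 2.02 to -1.51. Between days 0 and 2, Dcn went from -1.90 to 1.17, F3 from -1.59 to 1.52, Pttg1 from -2.09 to 2.08, Snrpn from 1.21 to -1.17 and Vegfd from -2.08 to 1.83. Atp5g2, Atp5md, Rps13 and Rps29 encode small proteins of the ATP synthase or the ribosome. Snrpn shares 206 bases of transcript with Snurf, so reads there cannot be told apart.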

How the results depend on the processing

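Library values and every limma result were alternatives chosen after seeing the data. With a 1.5-fold threshold 1424 genes were higher and 1583 lower in S54F, with a 4-fold threshold 279 and 351, and with a minimum value of 50 the higher count was 462. Means of the library values gave 908 higher and 950 lower, and leaving out each library gave 898 to 995 higher and 922 to 1032 lower. The median log2 ratio was 0.0296 after scaling both groups to equal sums and 0.0725 with values from the tables of day 0 against day 1. The Emd log2 ratio was -9.28 with a pseudocount of 1 and -12.48 from the tables of day 0 against day 1. Over all lists, 192 members were 2-fold apart and 357 were 1.5-fold apart. The chromosome 3 median was -0.26 with a minimum of 50.

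With the 6 libraries as 6 units limma called 1667 higher and 1791 lower, and without predicted and model genes it called 249 higher and 196 lower, so that more were higher than lower. Leaving out each library gave 0 to 289 higher and 0 to 360 lower. The lowest values were without wildtype library c, and leaving out S54F library c gave 30 and 104. Part of this follows from construction, since 1 group then has a single unit. Among the named genes, the leave-outs ran from -0.29 to 1.78 for Fmod and from -0.68 to 2.01 for Cnn1 on the log2 scale, both reversed without S54F library c. Over the alternatives 1594 of 1679 values moved by less than 1 SD, the larger SD between libraries within a group. Most of these alternatives leave out a single library, which can hardly move a mean by 1 SD. This count is therefore no measure of stability. No paired analysis was possible because the library values carry no replicate number. Depth limits genes near 0 reads, whose ratios are given with counting intervals or as bounds.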
